A study of Mus musculus with 6 samples.

Results

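The genes described here encode the proteins of the mitochondrial ribosome. They were taken as every gene whose platform symbol starts with Mrpl or Mrps followed by a number, and each gene was read by 1 probe set, selected on its mean intensity, the highest of the gene's probe sets across the 6 arrays. That gave 76 of 18193 genes measured. The 47 with Mrpl symbols are called large subunit genes here and the 29 with Mrps symbols small subunit genes. This split rests on the symbol alone, which need not give the subunit that holds the protein. RefSeq lists 78 protein-coding mouse symbols of this form, and Mrpl30 and Mrpl53 were not analysed here. The genes were thus chosen by name and their probe sets by mean intensity, neither of which uses the treatment. The family itself was taken up with earlier results of these arrays known, so its treatment differences are given as a description.

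Mitochondria keep a small genome of their own, and the ribosomes that translate it are built inside the organelle. Their RNAs come from mitochondrial DNA, while all of their proteins are encoded in the nucleus, made in the cytosol and imported. The large subunit joins amino acids, the small subunit decodes the message, and the products are subunits of the respiratory chain and of ATP synthase. Many of the proteins descend from bacterial ribosomal proteins, and others have no bacterial counterpart. Embryonic stem cells depend largely on glycolysis, and a shift towards respiration is known to accompany neuronal differentiation.

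The RNA came from neuralized embryoid bodies, floating clusters of mouse embryonic stem cells driven towards neural progenitors. Cultures called Ag1.3 received 500 nM all-trans retinoic acid (RA) together with 50 nM of the compound Ag1.3, which activates Smoothened, the transducer of the Sonic hedgehog signal at the membrane. The RA cultures received 500 nM all-trans RA alone. In both groups the treatment lasted 3 days and followed 2 days in suspension. All cultures of both groups were made from 1 stem cell line in which the Rosa26 promoter, active in nearly all cells, drives a transgene for Gli1 with a FLAG tag, so RA cultures too carry this added hedgehog transcription factor. Each group had 3 cultures, and cultures with the same number were parallel, so that p-values measure the spread between parallel cultures of a single line. Total RNA was labelled as biotinylated cRNA and read on Affymetrix 3′ expression arrays, with 1 array per culture. The comparison asks which transcripts differ when the Smoothened agonist is added to RA.

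Across all genes, 252 of 18193 differed between Ag1.3 and RA cultures (limma with the pair as a block, Benjamini-Hochberg adjusted p under 0.05), 195 of them (1.07%) higher and 57 (0.313%) lower. The hedgehog target Ptch1, which encodes the hedgehog receptor, was higher by 1.23 on the log2 scale (SE 0.13), with 3413.04, 2834.26 and 4025.22 in Ag1.3 cultures and 1123.25, 1303.71 and 2018.26 in RA cultures. Its call was lost when any 1 pair was left out, with differences of 1.05 to 1.35. All 10 neuron markers examined had higher values in Ag1.3 cultures, and 7 of them passed the test. All values of the 10 neural progenitor markers were 125.06 or more, above the 4.02 to 20.71 of control probe sets with no matching spike. Probe intensity depends on the probe sequence, so levels of different genes are not set against each other below.

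No gene of the mitochondrial ribosome differed between the groups at an adjusted p under 0.05: 0 of 76, against 1.39% of all genes. At an unadjusted p under 0.05 there were 2 of 76, Mrps18b and Mrpl21, both lower in Ag1.3 cultures, against 14.9% of all genes. That count moved with the settings, to 10 of 76 (13.2%, against 16.7% of all genes) with a pseudocount of 64 and 13 of 76 (17.1%, against 16.6%) with limma's trend moderation, so the low share is not firm. The smallest adjusted p of the family was 0.229 in limma, for Mrps18b. The fitted log2 differences ran from -0.24 to 0.11, that is from 1.18-fold lower to 1.08-fold higher in Ag1.3 cultures. A p that misses the threshold does not show equal levels, so the 95% intervals are given as well. Standard errors were 0.07 to 0.11 (median 0.08), and every one of the 76 intervals stayed within 1.5-fold in either direction, against 89.6% of all genes. The farthest bounds were -0.46, a 1.37-fold lower level for Mrpl1, and 0.32, a 1.25-fold higher level for Mrpl37. When the arrays were scaled to the hybridization spikes, 70 of the 76 intervals stayed within 1.5-fold.

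**Figure D1:**
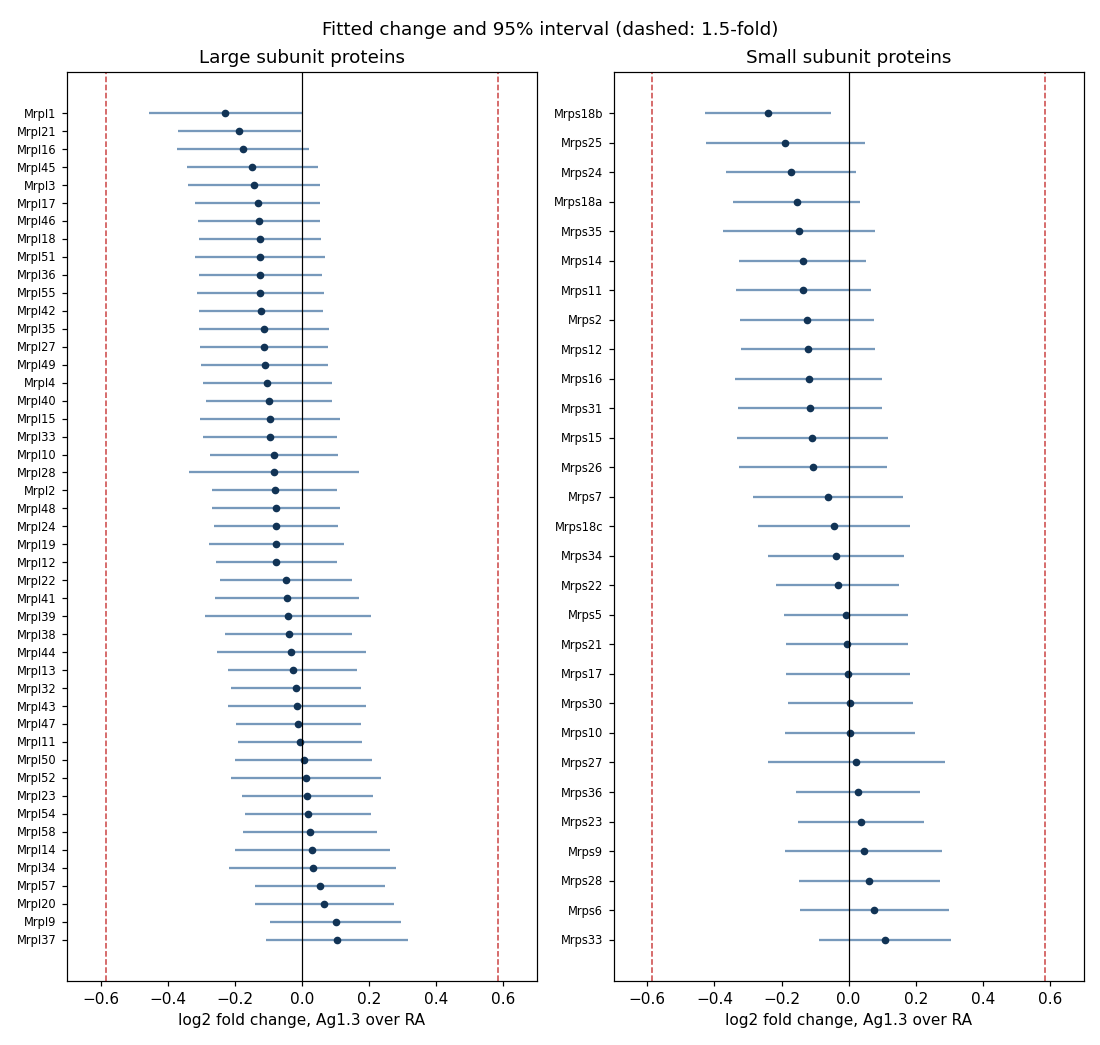
Log2 fold change of Ag1.3 over RA cultures (x axis) for the 47 large (left) and 29 small (right) subunit genes, split by symbol and ordered from lowest to highest. Points are limma estimates, bars are 95% intervals and dashed lines mark 1.5-fold; only Mrpl21 and Mrps18b have intervals that lie below 0, and no interval reaches 1.5-fold.

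Within those bounds more members lay below 0 than above it. The log2 difference was below 0 for 56 of 76 genes, against 52% of all genes, and the median was -0.08, against -0.01 for all genes. Every member was brighter than the median probe set, and among the 11441 genes above that level 54% were below 0, with a median of -0.01. Of those brighter genes 17.3% had an unadjusted p under 0.05, 90.7% an interval within 1.5-fold, 23.3% were lower in 3 of 3 pairs and 19.4% higher. All 3 Ag1.3 arrays lay below all 3 RA arrays for 11 members (Mrpl2, Mrpl4, Mrpl12, Mrpl21, Mrpl46, Mrpl49, Mrpl51, Mrps14, Mrps18a, Mrps18b and Mrps24), against 5.35% of all genes. All 3 Ag1.3 arrays lay above all 3 RA arrays for 0 members, against 6.45% of all genes. The value was lower in Ag1.3 cultures in 3 of 3 pairs for 32 members, against 19.5% of all genes, and higher in 3 of 3 pairs for Mrpl9, Mrpl37 and Mrps33, against 17.2% of all genes. These shares describe the family and carry no test.

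The size of the lower median differed between the pairs of cultures. The median member differed by -0.10 in the first pair, -0.09 in the second and -0.01 in the third, with 64, 58 and 43 of the 76 genes below 0. The medians of all genes in those pairs were -0.01, -0.04 and 0.02. The family's median was -0.04 without the first pair, -0.04 without the second and -0.11 without the third, so its size rests on which pairs are counted. The summed intensity of the 76 genes was 43865, 42467.8 and 43780.9 in Ag1.3 cultures and 46508.2, 45147.8 and 44209.9 in RA cultures. The sum was lower with Ag1.3 in each pair, least so in the third.

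**Figure D2:**
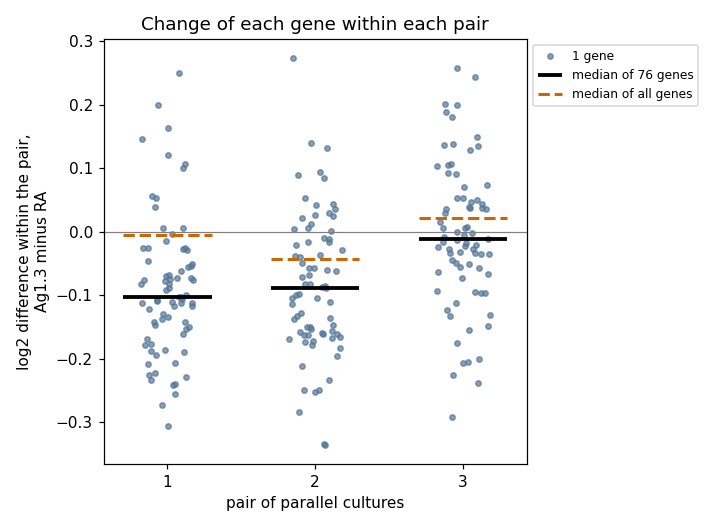
Log2 difference between the Ag1.3 and the RA culture of each pair (y axis) for the 76 genes, 1 point per gene, in pairs 1 to 3 (x axis). Black lines are the medians of the 76 genes, -0.10, -0.09 and -0.01, and dashed lines are the medians of all genes, -0.01, -0.04 and 0.02.

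The overall level taken as equal between arrays bears on differences of this size. The hybridization spikes, control transcripts added in fixed amount at the hybridization step, gave mean log2 readings that were 0.19 higher for Ag1.3 arrays. Such spikes do not measure how much RNA a culture held. The readings were 9.89, 9.92 and 9.98 on Ag1.3 arrays and 9.59, 9.84 and 9.78 on RA arrays. The shift was thus uneven between pairs and largest in the first, where the RA array read lowest. Scaling the arrays to the spikes moved the median of all genes to -0.16 and that of the 76 members to -0.26. Relative to all genes the members' median was then -0.10, against -0.07 with the intensities as deposited. Under that scaling all 76 members lay below 0, together with 81.8% of all genes. Mrps18b (-0.43, adjusted p = 0.027), Mrpl1 (-0.41, adjusted p = 0.040) and Mrpl21 (-0.37, adjusted p = 0.047) then passed the limma test as lower, against 7.69% of all genes called lower.

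**Figure D3:**
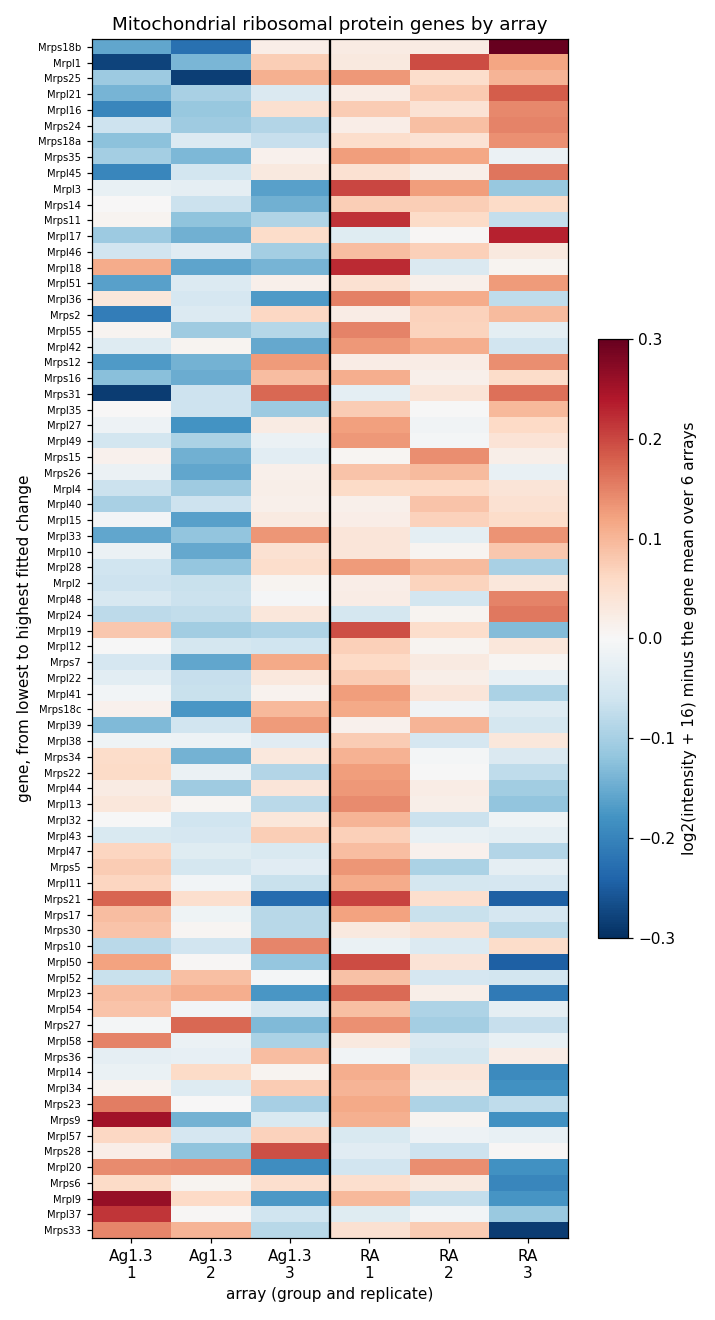
Level of each of the 76 genes (rows, from the lowest to the highest fitted log2 change) on the 3 Ag1.3 and 3 RA arrays (columns), as log2(intensity + 16) minus the gene's mean over the 6 arrays. Blue is below and red above the gene's mean, and colours end at -0.3 and 0.3; in the upper rows the Ag1.3 columns are mostly blue, and in several lower rows pair 3 is pale or blue in both groups.

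The large subunit, taken by Mrpl symbols, had 36 of 47 genes below 0, with a median of -0.08. Mrpl1, the protein of the mobile L1 stalk at the exit side of the ribosome, had the lowest value. Its intensity was 216.48, 240.15 and 280.64 in Ag1.3 cultures and 271.43, 306.92 and 289.85 in RA cultures. The third Ag1.3 culture exceeded the first RA culture, so the groups overlapped. The log2 difference was -0.23 (SE 0.09, limma adjusted p = 0.335). Mrpl21, a homologue of the bacterial large subunit protein L21, had 456.24, 470.56 and 488.33 in Ag1.3 cultures and 512, 532.81 and 573.57 in RA cultures. Every Ag1.3 array was below every RA array, and the difference was -0.19 (SE 0.07, limma adjusted p = 0.326). Mrpl16, which lies close to the peptidyl transferase centre, read 362.76, 384.99 and 432.49 in Ag1.3 cultures and 441.79, 431.42 and 463.75 in RA cultures. It was lower with Ag1.3 in 3 of 3 pairs, the groups overlapped by the third Ag1.3 and the second RA culture, and the difference was -0.18 (SE 0.08).

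At the other end of the large subunit stood Mrpl37, Mrpl9 and Mrpl20. Mrpl37, a protein with no bacterial counterpart, read 698.04, 601.11 and 575.3 in Ag1.3 cultures and 584.66, 596.02 and 553.77 in RA cultures. The first Ag1.3 culture stood above the rest, and the log2 difference was 0.10 (SE 0.08, limma adjusted p = 0.646). Mrpl9, the homologue of bacterial L9, read 600.45, 520.02 and 440.31 in Ag1.3 cultures and 534.2, 473.08 and 438.68 in RA cultures. Both groups were highest in the first pair and lowest in the third, and the difference between groups was 0.10 (SE 0.08). Mrpl20 differed by 0.07, almost all of it in the first pair, where it read 949.44 with Ag1.3 and 824.67 with RA. None of these 3 differences passed the test, and with the arrays scaled to the spikes all 3 were below 0.

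Other parts of the large subunit showed the same narrow range. The brightest probe set of the family belonged to Mrpl15, at the core of the large subunit, with 2152.87, 1929.39 and 2205.76 in Ag1.3 cultures and 2192.36, 2271.77 and 2247.27 in RA cultures, a log2 difference of -0.10 (SE 0.08). Mrpl12, the stalk protein that recruits translation factors, read 894.95, 863.31 and 858.81 in Ag1.3 cultures and 941.76, 901.41 and 917.91 in RA cultures. The groups did not overlap and the difference was -0.08 (SE 0.07). Mrpl45, which lies where the ribosome meets the inner membrane, differed by -0.15 (SE 0.08). Mrpl44, a protein related to RNase III, differed by -0.03 (SE 0.09), and Mrpl58, a peptidyl-tRNA hydrolase built into the subunit, by 0.02 (SE 0.08). Mrpl51, the other member with the highest intensity, differed by -0.13, and Mrpl55 and Mrpl48, those with the lowest, by -0.12 and -0.08.

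The small subunit, taken by Mrps symbols, had 20 of 29 genes below 0, with a median of -0.04. Mrps18b, 1 of 3 mammalian relatives of bacterial S18, had the lowest value of all 76. It read 403.27, 383.82 and 457.22 in Ag1.3 cultures and 458.72, 459.26 and 563.31 in RA cultures. The third culture was the highest of each group, and the groups did not overlap. The log2 difference was -0.24 (95% interval -0.43 to -0.05, SE 0.07, limma adjusted p = 0.229). Its relatives lay closer to 0. Mrps18a read 530.21, 562.57 and 551.63 in Ag1.3 cultures and 601.65, 596.87 and 638.37 in RA cultures, a difference of -0.15 (SE 0.08) with no overlap. Mrps18c differed by -0.04 (SE 0.09), lower with Ag1.3 in 2 of 3 pairs. The intervals of all 3 relatives overlap, and the differences between them were not tested.

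Mrps24, the homologue of bacterial S3 at the entry of the message, read 424.97, 411.87 and 417.35 in Ag1.3 cultures and 450.75, 474.13 and 495.15 in RA cultures. The groups did not overlap, and the log2 difference was -0.17 (SE 0.08, limma adjusted p = 0.389). Mrps25 read 238.63, 209.55 and 279.66 in Ag1.3 cultures and 284.56, 268.59 and 278.38 in RA cultures. The third pair was level, and the fitted difference was -0.19 (SE 0.09). Mrps12, a protein of the decoding centre, differed by -0.12 (SE 0.08), and Mrps14, the brightest of the small subunit, by -0.14 (SE 0.08). Mrps31, the next brightest, differed by -0.12.

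Mrps33 had the highest value of the 76, with 773.38, 749.67 and 656.93 in Ag1.3 cultures and 720.66, 735.95 and 569.32 in RA cultures. It was higher with Ag1.3 in each pair, but the third Ag1.3 culture lay below 2 RA cultures. The log2 difference was 0.11 (95% interval -0.09 to 0.31, SE 0.08, limma adjusted p = 0.601). Mrps6 differed by 0.08 and Mrps28 by 0.06, each turning below 0 without the third pair. Mrps27, a pentatricopeptide repeat protein and among the dimmest of the subunit, read 177.71, 203.15 and 161.35 in Ag1.3 cultures and 197.82, 165.3 and 169.37 in RA cultures, which gave the largest standard error of the family, 0.11, around a difference of 0.02. Mrps36, whose product is now assigned to the oxoglutarate dehydrogenase complex despite its name, differed by 0.03 (SE 0.07).

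Members also varied between the pairs of cultures. The range of the 3 pair means exceeded the treatment difference for 58 of 76 genes, close to the 78.8% of all genes, with a median range of 0.15 and a median absolute treatment difference of 0.08 on the log2 scale. Mrps21 had the widest range, 0.43. It read 487, 445.75 and 364.26 in Ag1.3 cultures and 497.08, 445.49 and 360.24 in RA cultures. The 2 cultures of each pair were nearly level while the pairs differed, and the treatment difference was -0.0042 (95% interval -0.19 to 0.18). Mrpl9 and Mrpl50 had the next widest ranges, 0.35 and 0.34. The third pair lay below the mean of the other pairs for 41 of 76 members, 53.9%, against 46.8% of all genes.

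The genes were also set apart by descent. The 46 genes with a bacterial homologue had a median of -0.08 and 37 below 0. The 30 genes with no bacterial counterpart had a median of -0.04 and 19 below 0. Both medians lie within the range of the family's own median over the 3 pairs, and the difference between the classes was not tested.

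Probe sets that were not chosen gave a second reading of the same transcripts. In all, 156 probe sets carried these symbols, and 42 of the 76 genes had more than 1. The other 80 probe sets had a median log2 difference of -0.0034, and 52 had the same sign as the chosen probe set. Of the 80, 41 (51.25%) were below 0, close to the 52.5% of all probe sets with 1 symbol. Of the 54 that were brighter than the median probe set, 41 had the sign of the chosen probe set, 32 were below 0 and the median was -0.02. No further probe set passed limma's test over all probe sets, and 8 (10%) had an unadjusted p under 0.05, against 13.6% of all 34945 probe sets with 1 symbol. Of those 8, 7 were higher and 1 lower in Ag1.3 cultures. All 6 values of 11 of the 80 lay at or under 20.71, the highest value of control probe sets with no matching spike. With the mean of all probe sets per gene, the median of the 76 genes was -0.05 and 51 were below 0.

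**Figure D4:**
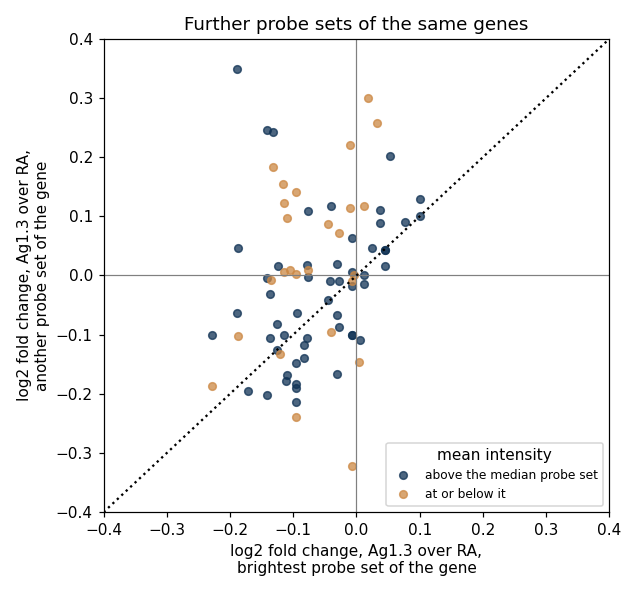
Log2 fold change of Ag1.3 over RA for each of the 80 further probe sets (y axis) against that of the gene's brightest probe set (x axis). Dark points are the 54 probe sets brighter than the median probe set and light points the 26 at or below it; the dotted line marks equality, and the farthest point above it is a Mrps25 probe set at 0.35 whose gene's brightest probe set is at -0.19.

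Some genes were read alike by all of their bright probe sets. The 3 probe sets of Mrpl9 gave 0.10, 0.10 and 0.13, and the 2 of Mrps24 gave -0.17 and -0.20. For Mrpl15 the brightest probe set gave -0.10 and the other 4 bright ones between -0.21 and -0.15. The probe sets of other genes differed more. Mrps25 gave -0.19, -0.06 and 0.35, the last from a probe set with 61.11, 79.19 and 76.95 in Ag1.3 cultures and 40.68, 64.46 and 56.45 in RA cultures. Mrpl3 gave -0.14 from its brightest probe set, which read 1179.96, 1175.25 and 1068.58 in Ag1.3 cultures and 1379.88, 1308.76 and 1106.8 in RA cultures, and -0.20 from the next brightest. Its remaining probe sets gave -0.0039 and 0.25, the last with 75.03, 70.55 and 75.1 in Ag1.3 cultures and 55.46, 56.18 and 67.54 in RA cultures. Mrpl17 likewise gave -0.13 from its brightest, 0.24 from a probe set near the median probe set and 0.18 from one below it. For Mrpl47 the brightest probe set gave -0.01, and those below the median probe set gave 0.22 and 0.11. The 3 bright probe sets of Mrpl11 gave -0.01, -0.02 and 0.06, and all values of its remaining one lay in the range of those control probe sets. None of these further probe sets passed the adjusted threshold. Fold changes here are on the log2(intensity + 16) scale, which understates those of dim probe sets.

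The promoters of the genes at the ends of the range are printed because they show what the genes with the lowest and the highest values hold just upstream of their starts. Each is the 250 bases before the annotated start, from RefSeq for GRCm38.p6, 5′ to 3′ on the strand of the gene, with matches to the GC box GGGCGG on either strand in capitals. Mrpl1 and Mrps18b had the lowest values of their subunits, and Mrpl37 and Mrps33 the highest.
Mrpl1, chr5:96209865-96210114, plus strand: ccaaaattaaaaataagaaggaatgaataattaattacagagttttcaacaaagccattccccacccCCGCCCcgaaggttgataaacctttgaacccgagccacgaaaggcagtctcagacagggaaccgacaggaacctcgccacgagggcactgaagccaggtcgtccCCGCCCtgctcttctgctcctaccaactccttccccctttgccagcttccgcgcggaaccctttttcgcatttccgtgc
Mrps18b, chr17:35916441-35916690, minus strand: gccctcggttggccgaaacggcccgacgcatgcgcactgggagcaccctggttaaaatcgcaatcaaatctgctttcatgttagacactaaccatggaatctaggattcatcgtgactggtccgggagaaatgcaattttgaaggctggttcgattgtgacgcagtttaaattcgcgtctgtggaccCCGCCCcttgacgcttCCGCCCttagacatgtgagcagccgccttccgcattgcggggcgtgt
Mrpl37, chr4:107066867-107067116, minus strand: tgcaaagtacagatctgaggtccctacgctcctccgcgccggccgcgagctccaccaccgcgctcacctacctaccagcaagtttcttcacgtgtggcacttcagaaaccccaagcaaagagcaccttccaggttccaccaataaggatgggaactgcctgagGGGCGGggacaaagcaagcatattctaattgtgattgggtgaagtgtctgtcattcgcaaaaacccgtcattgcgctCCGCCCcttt
Mrps33, chr6:39810937-39811186, minus strand: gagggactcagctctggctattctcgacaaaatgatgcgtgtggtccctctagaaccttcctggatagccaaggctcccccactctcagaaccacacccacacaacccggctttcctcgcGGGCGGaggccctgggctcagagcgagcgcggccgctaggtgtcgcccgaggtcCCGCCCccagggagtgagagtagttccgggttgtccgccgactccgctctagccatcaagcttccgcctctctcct
Each of the 4 holds 2 GC boxes. The GC content was 52.8% for Mrpl1, 54.8% for Mrps18b, 55.2% for Mrpl37 and 63.6% for Mrps33.

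RefSeq windows of 300 bases, 250 before and 50 after the start, were at hand for 67 of the 76 genes, 73 windows in all. Motifs were searched on both strands. Those of NRF1, ETS factors and YY1 belong to factors known to act on nuclear genes for mitochondrial proteins. The GC box, TATAAA and Gli letters were searched beside them. The NRF1 motif, GCGCA and GCGC with any base between them, was in 16.4% of the members' windows and in 7.43% of the 18109 windows of all array genes. CCGGAAGT, bound by ETS factors such as GABP, was in 16.4% and 5.83%, and AAGATGGCG, bound by YY1, in 11.0% and 2.09%. At least 1 of these 3 was in 41.1% of the members' windows, against 14.3% of all windows, over 30 genes. The GC box was in 53.4% and 52.3%, and TATAAA in 6.85% and 9.77%. The Gli letters GACCACCCA were in 0 of the 73 windows and in 0.193% of all windows, which says only that these exact letters are absent there. No matches of different motifs overlapped in the members' windows.

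The YY1 matches are printed because most of them lie just after the annotated start. They are shown with 5 bases on either side, on the strand of the gene, with the match in capitals.
Mrps18a, chr17:46111010-46111028, plus strand: gttccAAGATGGCGgccct
Mrps27, chr13:99344795-99344813, plus strand: gctccAAGATGGCGgctcc
Mrpl35, chr6:71823748-71823766, minus strand: gctgcAAGATGGCGgcttc
Mrpl37, chr4:107066827-107066845, minus strand: gggcaAAGATGGCGgcgtc
Mrpl42, chr10:95501909-95501927, minus strand: gaagcAAGATGGCGagcgc
Mrps24, chr11:5707652-5707670, minus strand: ggcccAAGATGGCGtggtc
Mrpl36, chr13:73330973-73330991, plus strand: ccttaCGCCATCTTtcttc
Mrps11, chr7:78783018-78783036, plus strand: ggcgcCGCCATCTTtctgt
In 6 of the 8 genes the match lies just after the annotated start, in the forward orientation; in Mrpl36 and Mrps11 it lies before the start in the reverse orientation. The 8 genes ran from -0.17 for Mrps24 to 0.10 for Mrpl37, with a median of -0.12 and 6 below 0.

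The NRF1 matches of Mrpl9, Mrpl12 and Mrpl45 are printed because Mrpl45 and Mrpl9 are the lowest and highest genes with that motif, Mrpl45 holds 3 matches, and Mrpl12 is a member whose groups did not overlap.
Mrpl9, chr3:94443303-94443322, plus strand: cagctGCGCATGCGCggggt
Mrpl12, chr11:120484551-120484570, plus strand: tctccGCGCCTGCGCgtcgc
Mrpl45, chr11:97315591-97315610, plus strand: ctcctGCGCAGGCGCagctg
Mrpl45, chr11:97315673-97315692, plus strand: tcattGCGCACGCGCgaacc
Mrpl45, chr11:97315726-97315745, plus strand: agcgtGCGCGTGCGCgcgac
Mrpl45 differed by -0.15, Mrpl12 by -0.08 and Mrpl9 by 0.10. The 12 genes with an NRF1 match had a median of -0.02 with 8 below 0, the 12 with an ETS match -0.09 with 10 below 0, and the 37 with none of the 3 motifs -0.08 with 26 below 0. These medians are descriptions, and a match of letters is not a measured binding site.

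Several of these genes start close to a neighbour on the other strand. A divergent neighbour with its start within 300 bases was found for 20 of 67 members, 29.9%, against 12.7% of the 14452 array genes with a window. Mrpl46 and Mrps11, 1 gene of each subunit, start 42 bases apart. The bases between their starts are printed on the strand of Mrps11, with the GC box in capitals.
Mrpl46 to Mrps11, chr7:78783090-78783130, plus strand: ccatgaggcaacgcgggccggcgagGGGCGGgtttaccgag
Mrpl46 read 333.37, 339.42 and 322.87 in Ag1.3 cultures and 371.7, 366.17 and 355.4 in RA cultures, and Mrps11 read 172.02, 155.84 and 159.61 in Ag1.3 cultures and 201.23, 178.45 and 161.81 in RA cultures. Both differed by -0.13 (SE 0.07 and 0.08), lower with Ag1.3 in 3 of 3 pairs, and for Mrps11 the groups overlapped because RA culture 3 was low.

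Other pairs joined the family to the same organelle. Mrps12 starts 147 bases from Sars2, the mitochondrial seryl-tRNA synthetase, and the 2 genes differed by -0.12 and -0.09. Mrpl43 starts 116 bases from Twnk, the helicase of mitochondrial DNA, with differences of -0.01 and -0.05. Some neighbours had values unlike those of the member. Mrpl27 differed by -0.11 and Eme1, a DNA repair nuclease subunit 48 bases away, by -0.33 (SE 0.07, limma adjusted p = 0.120), with 203.91, 185.04 and 187.87 in Ag1.3 cultures and 261.14, 240.64 and 236.22 in RA cultures. Mrpl21 and Ighmbp2, 32 bases apart, differed by -0.19 and 0.19. Cyb5rl, 128 bases from Mrpl37, differed by -0.43 (SE 0.15, limma adjusted p = 0.280), and Mrpl37 by 0.10. Its values were 11.09, 29.73 and 15.6 in Ag1.3 cultures and 30.55, 30.44 and 28.09 in RA cultures, near the 4.02 to 20.71 of control probe sets with no matching spike. Of the 18 neighbours outside the family, 0 passed the limma test (against 1.39% of all genes). In limma 2 of them, Eme1 and Cyb5rl, had an unadjusted p under 0.05, against 14.9% of all genes. The sign was that of the member for 11.

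Other genes of mitochondrial translation and respiration, with the cytosolic ribosome for comparison, made 9 lists with 206 genes in all. Of these, 0 passed the limma test, against 1.39% of all genes. An unadjusted p under 0.05 was seen for 11, against 14.9%. The log2 difference was below 0 for 149 of the 206, against 52% of all genes. Among 24 genes for ribosome assembly and rRNA modification, 22 lay below 0 with a median of -0.06. Tfb1m, which methylates the small subunit's RNA, read 309.03, 310.75 and 282.85 in Ag1.3 cultures and 368.97, 376.95 and 320.13 in RA cultures, a difference of -0.23 (SE 0.07, limma adjusted p = 0.250). Mrm2, which methylates the large subunit's RNA, read 137, 114.55 and 128.72 in Ag1.3 cultures and 157.06, 141.61 and 150.15 in RA cultures, a difference of -0.22 (SE 0.07, limma adjusted p = 0.267). Neither gene's groups overlapped.

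Another list held 8 symbols outside the Mrpl and Mrps series, and 5 were measured under the symbol listed. Those 5 had a median of -0.09 with 3 below 0. They included Oxa1l, which is not itself a ribosomal protein and differed by 0.08. Dap3, a small subunit protein that binds GTP, differed by -0.09, and Gadd45gip1, a large subunit protein, by -0.15. The 10 translation factors had a median of -0.03 with 7 below 0, led by Gfm1 at -0.18 and Gfm2 at -0.12, the G factors of elongation and of ribosome recycling. The 19 aminoacyl-tRNA synthetases, which charge the organelle's tRNAs, had a median of -0.06 with 13 below 0, led by Cars2 at -0.20 and Iars2 at -0.15. The 11 genes for mitochondrial DNA and its transcription had a median of -0.08 with 10 below 0. Lrpprc, which stabilises mitochondrial messages, differed by -0.17 and Tefm, the elongation factor, by -0.13.

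Respiratory chain genes, whose few organelle-encoded partners these ribosomes make, lay nearer 0. The complex I list was taken by Nduf symbols, Ndufa4 and Ndufa4l2 included. It had 20 of 35 genes below 0 and a median of -0.03, with Ndufv1 and Ndufb7 at -0.15 each. The list for complexes II to V, also taken by symbol, had 31 of 46 below 0 and a median of -0.02. The lowest values of that list belonged to Cox7a1 (-0.38, limma adjusted p = 0.108) and Cox6b2 (-0.24), tissue-specific subunits of cytochrome oxidase. Among the 11 regulators of mitochondrial biogenesis the median was -0.01, with 7 below 0. Ppargc1a, the coactivator PGC-1α, had 22.06, 26.13 and 19.1 in Ag1.3 cultures and 11.28, 5.44 and 10.6 in RA cultures. The groups did not overlap, but all 3 RA values and 1 Ag1.3 value lay within 4.02 to 20.71, the range of control probe sets with no matching spike. Its log2 difference was 0.62 (SE 0.13, limma adjusted p = 0.110). Myc, which also drives ribosomal genes, differed by -0.34 (SE 0.09, limma adjusted p = 0.166). Pprc1, a brighter gene of this list, differed by -0.23 (SE 0.08, limma adjusted p = 0.255), lower in 3 of 3 pairs.

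The cytosolic ribosome gave a comparison from outside the organelle. The list held the 45 genes measured under a matching symbol, relatives such as Rpl39l, Rps4l and Rpl3l included, and not the whole ribosome. Of these, 36 lay below 0, with a median of -0.03, and 2 (Rpl3l and Rps16) had all values at or under 20.71. The 2 with the smallest p were Rps4l and Rpl39l, relatives of Rps4x and Rpl39. Rps4l read 747.26, 805.29 and 1312.81 in Ag1.3 cultures and 959.17, 1161.12 and 1778.51 in RA cultures, a difference of -0.44 (SE 0.08, limma adjusted p = 0.077). Rpl39l read 114.88, 254.99 and 467.55 in Ag1.3 cultures and 230.66, 402.56 and 558.17 in RA cultures, a difference of -0.60 (SE 0.14, limma adjusted p = 0.132). In both, the third culture was the highest of its group. No difference between the mitochondrial family and any of these lists was tested.

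**Figure D5:**
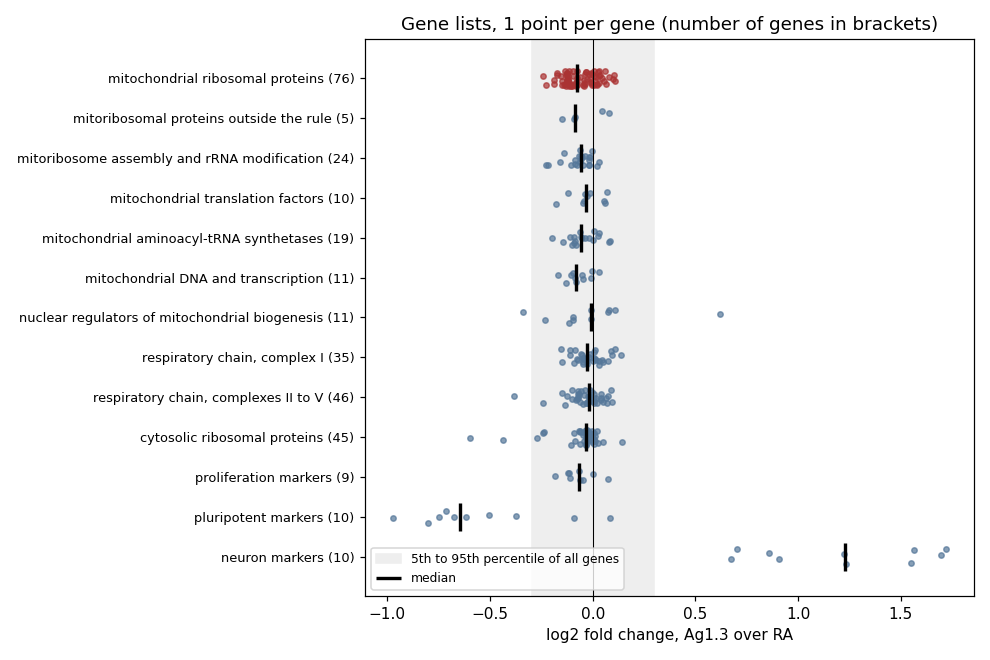
Log2 fold change of Ag1.3 over RA (x axis) for the 76 mitochondrial ribosomal protein genes (top row), the 9 companion lists and 3 marker lists (y axis, number of genes in brackets), 1 point per gene. Black bars are medians and the grey band holds the 5th to 95th percentiles of all genes; the 76 genes all lie within that band, with a median of -0.08, and the neuron markers lie at a median of 1.23.

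Marker genes of neurons and of pluripotent cells differed between the groups in the same cultures. In bulk RNA, fewer cells of a type and less RNA per cell cannot be told apart. The 10 neuron markers had 7 called higher and a median of 1.23, with summed intensities of 6326.6 to 9083.77 in Ag1.3 cultures and 2023.53 to 3715.11 in RA cultures. Of the 10 pluripotency markers 9 lay below 0, 1 of them called (Pou5f1, the stem cell factor Oct4), with sums of 3900.57 to 7588.29 in Ag1.3 cultures and 5850.93 to 9884 in RA cultures. Of the 10 neural progenitor markers 8 lay above 0 and 2 below, with a median of 0.15. The receptor gene Notch1 was called higher, and Pax6, a neural transcription factor, differed by -0.48 (limma adjusted p = 0.053), lower in 3 of 3 pairs. The list had sums of 11693.3 to 15235.6 in Ag1.3 cultures and 9866.16 to 14684.1 in RA cultures. The 9 proliferation markers measured had 0 called and 0 at an unadjusted p under 0.05 in limma, a median of -0.07 with 7 below 0, and sums of 14707.2 to 15650.9 in Ag1.3 cultures and 15246.1 to 16324 in RA cultures.

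The 10 endoderm markers summed to 302.79 to 508.71 in Ag1.3 cultures and 345.38 to 658.19 in RA cultures. Their median was -0.02, with 6 of 10 below 0 and 3 of 10 brighter than the median probe set. Sox17, the 1 called, was lower, with 32.11, 30.81 and 93.22 in Ag1.3 cultures and 84.89, 115.85 and 213.76 in RA cultures. The 9 mesoderm markers summed to 449.13 to 563.38 in Ag1.3 cultures and 428.33 to 577.66 in RA cultures, with 0 called and 3 at an unadjusted p under 0.05 in limma. The deposited values end near 1, so detection is read against the control probe sets with no matching spike. All values of Apoa1, an endoderm marker, lay at or under 20.71, and no other marker gene in these lists had all of its values there. The calls of Pou5f1, Notch1 and Sox17 were each lost when any 1 pair was left out. The part of these marker lists in the values of the mitochondrial ribosomal genes was not tested. RNA quality readings were close: the 3′ to 5′ ratio of the actin probe sets was 1.33 to 1.63 on Ag1.3 arrays and 1.46 to 1.51 on RA arrays, and that of Gapdh was 0.932 to 0.962 on Ag1.3 arrays and 0.903 to 0.932 on RA arrays.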

How the data were processed

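The authors deposited 1 intensity per probe set and array on a linear scale (how probes were summarised and arrays scaled is not given in the sources used here). Medians over probe sets that are not controls ran from 48.76 to 52.55 on Ag1.3 arrays and from 48.68 to 51.89 on RA arrays. Precision is limited by the number of arrays. No pair of arrays within a group was a copy, with 21 to 37 equal values above 1 among 45101 probe sets.

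Of these probe sets, 34945 carried 1 gene symbol, 932 several and 9160, controls aside, none; only those with 1 symbol were used. Each of 18193 genes was read by its brightest probe set, that of the highest mean log2(intensity + 16). For the 76 members, 6 of these probe sets had names ending in _s_at and 3, that of Mrpl15 included, in _x_at. Whether such probe sets also read other transcripts was not tested. Ag1.3 and RA arrays were compared with limma 3.58.1 in R 4.3.3 on log2(intensity + 16), with the pair as a block and Benjamini-Hochberg adjustment over all genes. The series' design text pairs the cultures, and deviations from the group means, over genes that are not independent, correlated at 0.54, 0.19 and 0.56 between arrays of the same number and at -0.51 to 0.07 between different numbers. Further probe sets were tested in a fit over all probe sets with 1 symbol.

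The members, the companion lists and the marker lists were chosen with earlier results of these data known. Genes named were the 3 highest and 3 lowest differences, the 2 brightest and 2 dimmest of each subunit, members whose probe sets differed in sign with an unadjusted p under 0.05, and the 2 smallest p of each companion list; others were named for their role, neighbour or motif after their values were seen. Alternatives were pseudocounts of 1 and 64, no block, the mean of all probe sets, a filter on low genes, trend moderation, quantile normalization, scaling to 18 spike probe sets, and each pair left out. Promoter sequences were those of RefSeq for GRCm38.p6.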

Additional observations from a re-analysis of the deposited data

How the results depend on the processing

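The median of the 76 genes stayed below 0 under every alternative, and 0 of them passed the limma test under all but 1. Scaling to the hybridization spikes called 3 of the 76 and moved the median to -0.26, with the median of all genes at -0.16. It called 11 of the 206 companion genes, beside 1686 of all 18193 genes. The companion count was 3 with a pseudocount of 64 (beside 831 of 18193) and 4 among genes above the median probe set (beside 950 of 11441). It was 4 with trend moderation (beside 891 of 18193) and 0 otherwise. At each setting with companion calls, their share was below that of all genes. The call count over all genes moved far more: from the 252 reported it came to 0 with a pseudocount of 1 (2411 at an unadjusted p under 0.05), 831 with a pseudocount of 64, 950 among genes above the median probe set, 891 with trend moderation and 1686 with spike scaling, and it ranged from 35 to 62 with 1 pair left out. The share of higher calls was 77.4% as reported, 56.9% with a pseudocount of 64, 52.3% among genes above the median probe set, 57.8% with trend moderation and 17.0% with spike scaling. Of the 76 genes, 40 (52.6%, against 30.4% of all genes) had an unadjusted p under 0.05 with spike scaling. Trend moderation gave 13 (17.1%, against 16.6%) and a pseudocount of 64 gave 10 (13.2%, against 16.7%). The filter on low genes, which kept 11441 genes and all 76 members, gave 5 (6.58%), against 21.6% of the genes kept. The other settings gave 0 to 3 of the 76, against 7.41% to 16.7% of all genes. Without the replicate block 86 genes were called, 90.7% of them higher, 0 of the 76 had an unadjusted p under 0.05, and no other call about the family changed with the pairing. The median of the 76 genes ranged from -0.11 to -0.04 with 1 pair left out, and 50 to 63 of them were below 0. Of the 24 named members, 4 changed sign with the mean of all probe sets, 7 with spike scaling and 2 with each pair left out, and 3 passed the threshold, all with spike scaling. The causes were not tested.

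The 95% intervals leave room for single members to be up to 1.37-fold lower or 1.25-fold higher in Ag1.3 cultures, and more under spike scaling, where 70 of 76 stayed within 1.5-fold. A shift shared by most genes would not be visible in arrays of similar overall level.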
